A study of Homo sapiens with 10 samples.

Results

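Transcripts of 10 genes that set the threshold for apoptosis were followed in OVCAR-3, an established line of human ovarian adenocarcinoma cells. The genes were taken by symbol from the 58222 genes of the table: the BH3-only genes PMAIP1, BBC3, BIK, BMF and BCL2L11, the effectors BAX and BAK1, the anti-apoptotic genes BCL2L1 and MCL1, and XIAP. All 10 passed the filter on low values, at least 1 TPM (transcript abundance corrected for gene length and scaled to a fixed total) in at least 2 libraries. The 10 genes were chosen with earlier results of these data known. Shares of all tested genes printed beside their counts are therefore no test of the family. Each of 5 groups held 2 biological replicates, and all groups shared the cell line and its serum-supplemented RPMI medium. Control cells were grown in standard culture. Day1 cells had spent 24 hours, and Day3 cells 3 days, immobilized in silica gel. Extracted cells outlived 3 days in gel and were then kept in standard culture for 2 weeks. Treated cells outlived 24 hours in 0.5 uM cisplatin, which forms platinum crosslinks in DNA, and then recovered for 2 weeks. Extracted and Treated libraries therefore represent survivors of a single cell line, and RNA from cells lost earlier was not sampled. In these bulk libraries, a larger share of cells with a transcript and more of it per cell cannot be told apart. The labels call the replicates biological and say no more of their origin, so p-values measure only the spread between these samples, which may be partly technical.

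Apoptosis through mitochondria is governed by the BCL2 family. BH3-only proteins sense damage and stress, bind the anti-apoptotic members in their groove and can activate BAX and BAK1, which permeabilize the outer mitochondrial membrane and release cytochrome c. BCL2L1, whose main product is BCL-xL, and MCL1 hold the effectors and BH3-only proteins in check, and XIAP acts further down by inhibiting caspases. Much of the family is regulated after translation, by phosphorylation, sequestration and, for MCL1 and PMAIP1 in particular, fast protein turnover, none of which a transcript level records.

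Promoter sequence is shown for 3 BH3-only genes, PMAIP1 and BBC3 because they were high on Day1 and lower again on Day3, and BMF because it was low in both recovered groups. Printed are the bases upstream of both the RefSeq and the GENCODE 29 start, from RefSeq on GRCh38.p14, 5′ to 3′ on the strand of the gene. The stretches lie at chr18:59899746-59899947 on the plus strand for PMAIP1, at chr19:47232767-47232917 on the minus strand for BBC3 and at chr15:40108893-40109129 on the minus strand for BMF. Capitals mark a match to the AP-1 motif TGANTCA.
PMAIP1: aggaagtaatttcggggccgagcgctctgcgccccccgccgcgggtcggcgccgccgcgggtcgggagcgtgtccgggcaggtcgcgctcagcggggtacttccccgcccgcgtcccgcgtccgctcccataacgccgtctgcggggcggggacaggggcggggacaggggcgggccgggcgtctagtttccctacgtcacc
BBC3: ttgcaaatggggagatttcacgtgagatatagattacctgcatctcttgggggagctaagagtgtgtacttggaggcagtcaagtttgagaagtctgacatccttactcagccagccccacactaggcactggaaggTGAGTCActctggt
BMF: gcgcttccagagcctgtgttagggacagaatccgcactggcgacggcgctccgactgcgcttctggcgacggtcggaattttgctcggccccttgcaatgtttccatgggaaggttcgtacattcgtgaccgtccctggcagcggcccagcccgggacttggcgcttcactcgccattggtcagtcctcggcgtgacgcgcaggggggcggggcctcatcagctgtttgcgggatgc

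Promoter entries were at hand for 8 of the 10 genes, as 12 windows of 250 bases before a RefSeq start. They were searched on both strands, each motif by itself, for TGATGNAA, a composite element of CHOP and ATF4, for TGACGTCA, the palindromic cAMP response element, and for TGANTCA. Among all 35116 such windows, 3.14% held TGATGNAA, 1.65% held TGACGTCA and 6.57% held TGANTCA. The only match in the 12 windows was the TGAGTCA of BBC3, whose first base lies 113 bases before the start. A missing match says only that these letters are not in that window.

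Sequencing depth is unknown because TPM keep no read counts, and precision therefore rests on the number of libraries. The 6 epithelial markers EPCAM, KRT8, KRT18, PAX8, WFDC2 and MUC16 were present in every library at a summed level of 3672 to 5204 TPM. Of 9 markers of stromal, endothelial and immune cells, 7 stayed below the filter and the sum of all 9 was 10.8 to 22.3 TPM, most of it COL1A1 and CD68. Transcripts of the mitochondrial genome held 15.8% to 16.7% of TPM in Control, 2.29% to 3.92% on Day1, 5.97% to 7.61% on Day3 and 10.4% to 11.1% in Extracted and Treated libraries. Small-RNA genes held 14.7% in Treated replicate 2 and 0.196% to 3.21% elsewhere. Since TPM are shares of a fixed total, these shares press on the level of every other gene. Their part in the results below was not tested, and the fits of rescaled values are given beside calls that they change. The median log2 difference of all tested genes was 0.12 for Day1 minus Control, -0.15 for Treated minus Control and -0.13 for Treated minus Extracted, and it lay within 0.10 of 0 elsewhere.

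**Figure D1:**
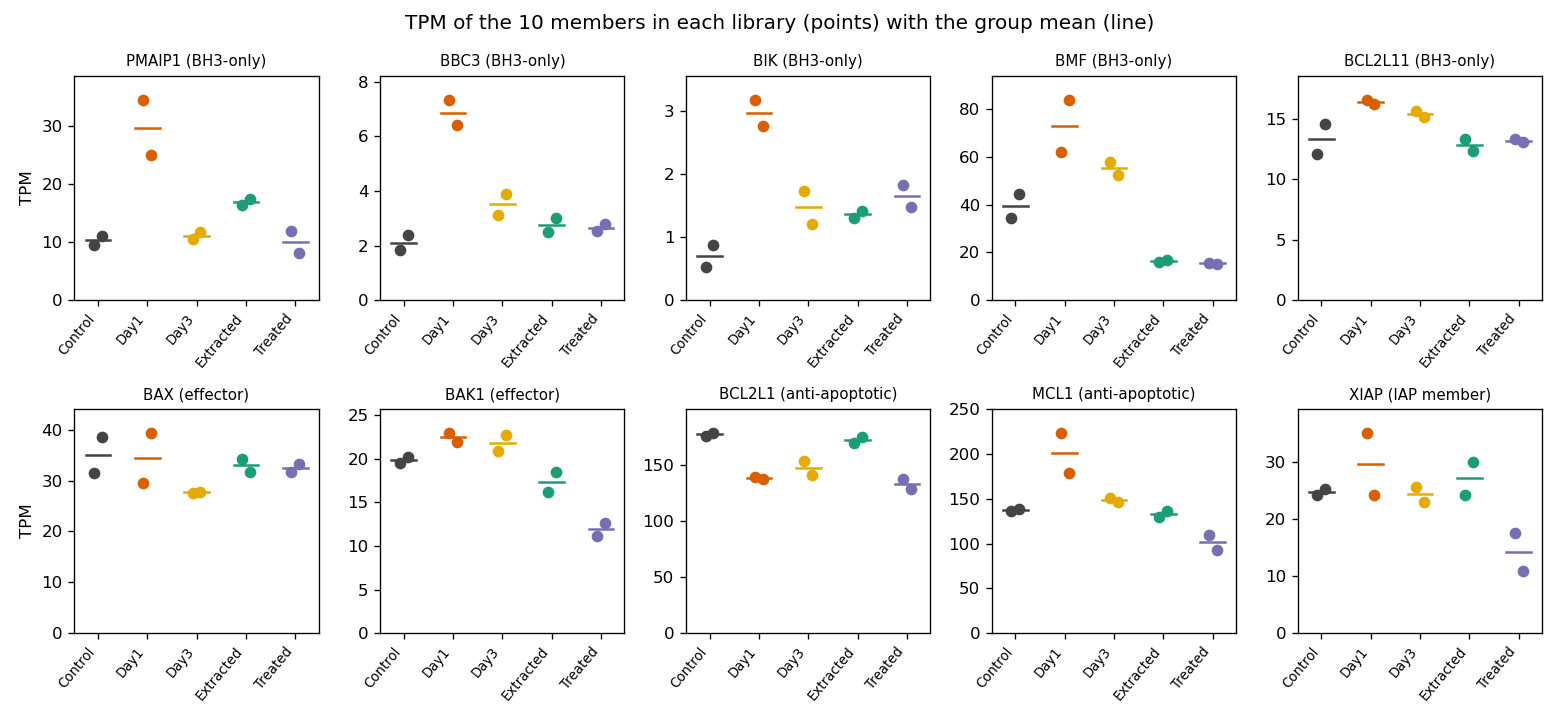
Level of each of the 10 genes in TPM (linear axis from 0) in the 2 libraries of each group (points), with the group mean as a line. PMAIP1, BBC3 and BIK are highest on Day1, and BMF is lowest in Extracted and Treated libraries. BCL2L11 ranges from 12.1 to 16.5 TPM and BAX from 27.6 to 39.3 TPM.

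After 24 hours in gel, 4 of the 5 BH3-only transcripts were higher than in Control, MCL1 rose beside them, and BCL2L1 fell. In limma at a Benjamini-Hochberg adjusted p under 0.05, 5 of the 10 genes were called higher and 1 lower on Day1, where 14.4% of the 15167 tested genes were called higher and 6.28% lower. The median log2 difference of the 10 genes was 0.41 and that of all tested genes 0.12. Differences are of log2(TPM + 1), which understates the change of low levels, and fold changes are ratios of mean TPM. By other scalings the split of all calls shifted from 69.6% higher to 47.1% with median-of-ratios scaling and to 34.2% over nuclear protein-coding genes alone, while all 6 calls among the 10 genes held under both.

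PMAIP1 (ENSG00000141682, GRCh38 chromosome 18 from 59899948 to 59904306, plus strand) encodes NOXA, a BH3-only protein that binds MCL1 and promotes its degradation. PMAIP1 measured 9.55 and 11.0 TPM in Control, 34.5 and 24.97 for Day1, 10.6 and 11.7 for Day3, 16.4 and 17.4 for Extracted and 11.8 and 8.06 for Treated libraries. Both Day1 libraries stood above the other 8, both Extracted libraries came next, and Control, Day3 and Treated libraries overlapped. The Day1 mean was 2.89-fold the Control mean, with a log2 difference of 1.43 ± 0.190 (SE, adjusted p = 0.00142).

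By Day3 PMAIP1 had returned to the range of Control: it fell from Day1 by 1.33 on the log2 scale (adjusted p = 0.0125), and its difference from Control was 0.11, with a 95% interval of -0.38 to 0.60. The fall was not called without Day1 replicate 1 or without either Day3 library. Extracted cells carried 16.9 ± 0.678 TPM (SD, n = 2) against 10.3 ± 1.04 in Control, a log2 difference of 0.67 that was not called (adjusted p = 0.112). That difference passed at 0.0391 with median-of-ratios scaling, 0.0422 over nuclear protein-coding genes, 0.0481 with small-RNA genes left out and 0.0435 in a fit of these groups alone. Treated cells, which had the same recovery time after another insult, had less PMAIP1 than Extracted cells (log2 difference -0.73, adjusted p = 0.0371). This call was lost without either Control, Day3 or Extracted library or without Treated replicate 2, where the difference was -0.48.

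BBC3 (ENSG00000105327, chromosome 19 from 47220822 to 47232766, minus strand) encodes PUMA, a BH3-only protein that binds all main anti-apoptotic members. BBC3 measured 1.83 and 2.39 TPM in Control, 7.32 and 6.40 for Day1, 3.13 and 3.89 for Day3, 2.50 and 3.00 for Extracted and 2.53 and 2.79 for Treated libraries. The Day1 libraries were the highest, the Day3 libraries came second and did not overlap any other group, and Control was the lowest group. BBC3 rose 3.26-fold from Control to Day1 (log2 difference 1.34 ± 0.169, adjusted p = 0.00106). From Day1 to Day3 it fell by 0.80 on the log2 scale (adjusted p = 0.0419), a call that leaving out any 1 of 7 libraries ended: Day1 replicate 1 or either Control, Day3 or Extracted library. On Day3 the difference from Control was 0.54 (adjusted p = 0.0757).

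BIK (ENSG00000100290, chromosome 22 from 43110748 to 43129712, plus strand) encodes a BH3-only protein found mainly at the endoplasmic reticulum, and it was the least abundant of the 10 genes. BIK measured 0.526 and 0.868 TPM in Control, 3.17 and 2.76 for Day1, 1.73 and 1.21 for Day3, 1.30 and 1.42 for Extracted and 1.82 and 1.47 for Treated libraries. Control lay below every other library and Day1 above, and Day3 overlapped both Extracted and Treated. Since both Control libraries were under 1 TPM, BIK entered the test through the other groups. BIK was 4.26-fold as high on Day1 as in Control by mean TPM (log2 difference 1.23 ± 0.195, adjusted p = 0.00307). In Treated cells it rose 2.36-fold (log2 difference 0.65, adjusted p = 0.0374), and this call was lost without any 1 of the Control, Extracted or Treated libraries. With a pseudocount of 0.1 the differences of BIK were 1.98 on Day1 and 1.16 in Treated cells.

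BMF (ENSG00000104081, chromosome 15 from 40087890 to 40108892, minus strand) encodes a BH3-only protein tethered to the cytoskeleton through dynein light chain and known for its release on loss of attachment. BMF measured 34.6 and 44.5 TPM in Control, 62.2 and 83.9 for Day1, 58.0 and 52.5 for Day3, 16.2 and 16.9 for Extracted and 15.6 and 15.1 for Treated libraries. No 2 groups overlapped: Day1 was the highest, then Day3, then Control, and all 4 libraries of recovered cells lay at 16.9 TPM or less. Among PMAIP1, BBC3, BIK, BMF and BCL2L11, BMF was the most abundant transcript in every library except the Extracted ones, where PMAIP1 reached similar levels. It rose 1.85-fold from Control to Day1 (log2 difference 0.86 ± 0.157, adjusted p = 0.00578), a call lost without Control replicate 1 (adjusted p = 0.0537).

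On Day3 the difference of BMF from Control was 0.48 on the log2 scale (adjusted p = 0.0847), and it was called when either Day1 library was left out. From Day3 to Extracted, BMF fell by 1.68 (SE 0.157, adjusted p = 0.000234), and that call held in every alternative fit and with any library left out. BMF was 2.39-fold higher in Control than in Extracted cells (log2 difference -1.20, adjusted p = 0.0129) and 2.57-fold higher in Control than in Treated cells (-1.30, adjusted p = 0.000623). The call in Extracted cells was lost without any 1 of the 4 compared libraries. The difference was then -1.37 to -1.02, and few of all tested genes were called in those fits. The call in Treated cells held in every fit. Between Treated and Extracted cells the log2 difference was -0.10, with a 95% interval of -0.50 to 0.31.

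BCL2L11 (ENSG00000153094, chromosome 2 from 111119378 to 111168447, plus strand) encodes BIM, a potent BH3-only activator that binds all anti-apoptotic members. BCL2L11 measured 12.1 and 14.6 TPM in Control, 16.5 and 16.2 for Day1, 15.7 and 15.2 for Day3, 13.3 and 12.4 for Extracted and 13.3 and 13.03 for Treated libraries. Day1 and Day3 libraries lay above the other 6, but no difference was called in any of the 7 comparisons. The log2 difference was 0.28 on Day1 (95% interval -0.02 to 0.59, adjusted p = 0.117). Its unadjusted limma p was 0.0386, and the interval, from 5 residual degrees of freedom, is wider than that p implies. The gene overlaps the long noncoding gene MIR4435-2HG on the opposite strand, which had 44.9 to 75.5 TPM, and the strand setting is not given in the sources used here, so reads of the 2 genes may not be told apart. Genes annotated on the opposite strand of BAK1, BBC3, BCL2L1, BMF and XIAP reached at most 0.157 TPM.

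Of the 2 effectors, BAX (ENSG00000087088, chromosome 19 from 48954815 to 48961798, plus strand), which moves from the cytosol into the mitochondrial membrane, measured 31.6 and 38.6 TPM in Control, 29.5 and 39.3 for Day1, 27.6 and 27.8 for Day3, 34.2 and 31.7 for Extracted and 31.7 and 33.2 for Treated libraries. Control, Day1, Extracted and Treated libraries overlapped, and the Day3 libraries were the lowest. BAX was not called in any of the 7 comparisons. Its log2 difference from Control was -0.03 on Day1, with a 95% interval of -0.41 to 0.34, and -0.32 on Day3 (adjusted p = 0.190).

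BAK1 (ENSG00000030110, chromosome 6 from 33572547 to 33580293, minus strand), which resides in the mitochondrial membrane and is restrained by MCL1 and BCL-xL, measured 19.5 and 20.2 TPM in Control, 23.0 and 22.0 for Day1, 20.9 and 22.7 for Day3, 16.2 and 18.5 for Extracted and 11.2 and 12.6 for Treated libraries. The Treated libraries were the lowest by a gap, the Extracted libraries came next, and Day1 and Day3 overlapped at the top. BAK1 was 1.67-fold higher in Control than in Treated cells (log2 difference -0.70 ± 0.116, adjusted p = 0.00295), a call that held in every fit. Against Extracted cells it was lower in Treated cells by a log2 difference of -0.51 (adjusted p = 0.0245). With median-of-ratios scaling that difference was -0.36 and was not called (adjusted p = 0.0973). It was also not called over nuclear protein-coding genes, with small-RNA genes left out, or without either Extracted library. The annotated processed copies BAK1P1 and BAK1P2 reached at most 0.473 TPM.

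BCL2L1 (ENSG00000171552, chromosome 20 from 31664452 to 31723989, minus strand) gives rise by splicing to the protective BCL-xL and to a shorter pro-apoptotic form, and the gene-level TPM adds them up. BCL2L1 measured 175.9 and 178.5 TPM in Control, 139.6 and 137.9 for Day1, 153.7 and 140.6 for Day3, 169.6 and 175.1 for Extracted and 137.9 and 128.4 for Treated libraries. Control and Extracted libraries were above the other 6, Day3 was intermediate, and Day1 and Treated overlapped at the bottom. In Control it was 1.28-fold higher than on Day1 (log2 difference -0.35 ± 0.0873, adjusted p = 0.0207), a call lost without any 1 of the 4 compared libraries. Over nuclear protein-coding genes alone the difference was -0.56.

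The Day3 level of BCL2L1 differed from Control by -0.27 on the log2 scale (adjusted p = 0.0847). That difference was called at -0.33 with median-of-ratios scaling (adjusted p = 0.0157), at -0.42 over nuclear protein-coding genes alone (adjusted p = 0.00424), with small-RNA genes left out, in a fit of these groups alone and without either Treated library. The Extracted level was back beside Control, with a log2 difference of -0.04 and a 95% interval of -0.26 to 0.18. In Treated cells BCL2L1 was lower than in Control (-0.41, adjusted p = 0.00906) and than in Extracted cells (-0.37, adjusted p = 0.0265). The first call was lost without either Control library, and the difference was -0.24 with median-of-ratios scaling (adjusted p = 0.0330). The second was lost with median-of-ratios scaling (-0.22, adjusted p = 0.079) and without Day3 replicate 1, Treated replicate 2 or either Control or Extracted library.

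MCL1 (ENSG00000143384, chromosome 1 from 150574551 to 150579738, minus strand) encodes a short-lived anti-apoptotic protein that is the main partner of NOXA. MCL1 measured 136.4 and 138.3 TPM in Control, 223.5 and 179.1 for Day1, 151.4 and 147.0 for Day3, 130.2 and 136.8 for Extracted and 109.3 and 93.4 for Treated libraries. Day1 was the highest group, Day3 the second, Control and Extracted overlapped, and Treated was the lowest. The Day1 mean was 1.47-fold that of Control (log2 difference 0.54 ± 0.119, adjusted p = 0.0128), a call lost without Day1 replicate 1 or either Control library. Over nuclear protein-coding genes alone the difference was 0.33 (adjusted p = 0.0273). From Day1 to Day3 the log2 difference was -0.42 and was not called (adjusted p = 0.106). In Treated cells MCL1 was lower than in Control (-0.44, adjusted p = 0.0250), a call lost without Treated replicate 2 or either Control library, and the difference was -0.27 with median-of-ratios scaling (adjusted p = 0.0405).

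XIAP (ENSG00000101966, chromosome X from 123859724 to 123913979, plus strand), an inhibitor of caspases, measured 24.1 and 25.2 TPM in Control, 35.0 and 24.1 for Day1, 25.6 and 22.9 for Day3, 24.2 and 30.0 for Extracted and 17.5 and 10.9 for Treated libraries. Control, Day1, Day3 and Extracted libraries overlapped, and the Treated libraries were below all of them, with the widest relative spread of the groups. XIAP was 1.74-fold higher in Control than in Treated cells (log2 difference -0.79 ± 0.222, adjusted p = 0.0283) and 1.91-fold higher in Extracted than in Treated cells (-0.91, adjusted p = 0.0297). The first call was lost without Treated replicate 2, the library rich in small RNA, where the difference was -0.47, or without either Control library. The second was lost without Treated replicate 2, where it was -0.59, or without any 1 of the Control, Day3 or Extracted libraries. Both differences of XIAP were still called with small-RNA genes left out. The retrocopy BIRC8 and the XIAP pseudogenes reached at most 0.188 TPM.

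**Figure D2:**
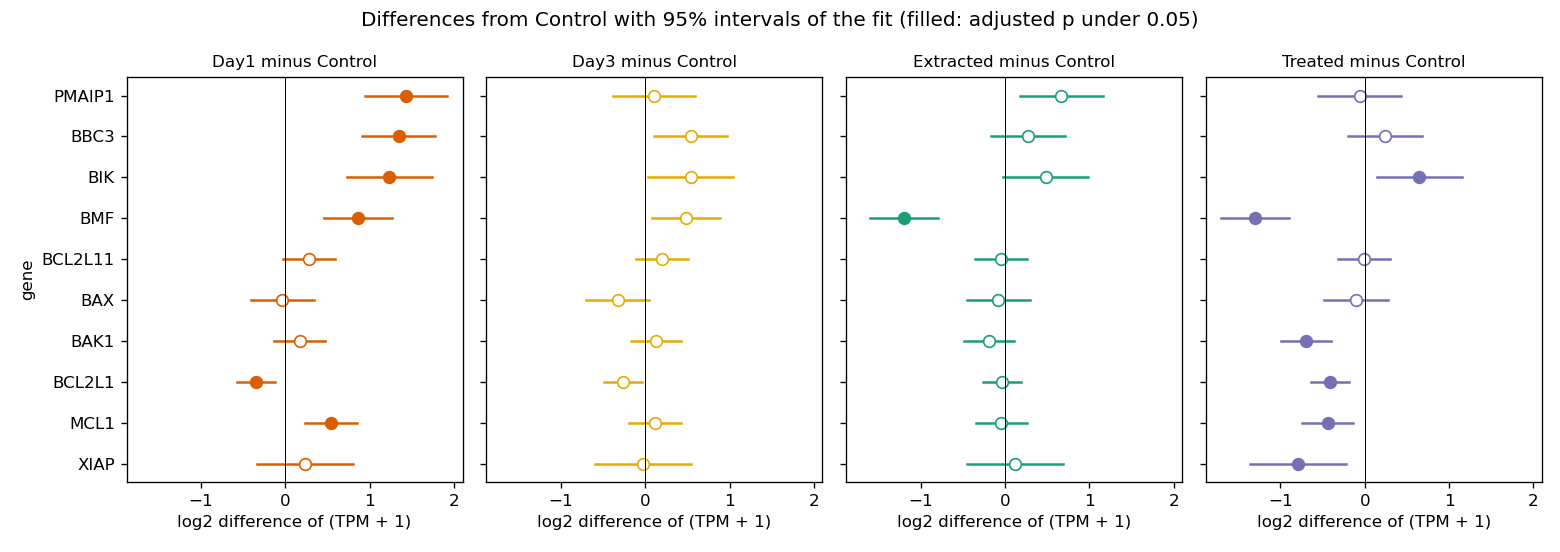
Difference of each gene from Control in log2(TPM + 1), for Day1, Day3, Extracted and Treated cells, n = 2 libraries a group. Lines are 95% intervals from the limma standard error with 5 residual degrees of freedom, wider than the p-values imply. Filled points have an adjusted p under 0.05. Filled points number 6 on Day1, 0 on Day3, 1 in Extracted and 6 in Treated cells, and all 4 panels share the same Control libraries.

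After 3 days in gel, 0 of the 10 genes were called against Control in limma and 4 had an unadjusted p under 0.05, where 5.18% of tested genes were called higher and 4.64% lower. The 4 were BBC3, BIK, BMF and BCL2L1, the first 3 with positive and BCL2L1 with negative differences. Directly between the gel times, 2 of 10 genes were lower on Day3 than on Day1, PMAIP1 and BBC3, and 0 were higher, against 1.69% of tested genes lower and 0.659% higher. BIK came next with a log2 difference of -0.69 (adjusted p = 0.106).

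In Extracted cells 1 of the 10 genes differed from Control, BMF, which was lower, and 0 were higher, where 1.13% of tested genes were called lower and 0.857% higher. From Day3 to Extracted, 1 of the 10 genes, BMF, was called lower and 0 higher in limma, with 4 at an unadjusted p under 0.05, against backgrounds of 10.8% lower and 6.3% higher. BAK1 had a difference of -0.32 there that was not called (adjusted p = 0.0915). PMAIP1 had a difference of 0.56 (adjusted p = 0.0713) and BCL2L1 of 0.23 (adjusted p = 0.103). Both were called higher in Extracted than in Day3 cells by other scalings. PMAIP1 had 0.63 with median-of-ratios scaling (adjusted p = 0.0178), 0.64 over nuclear protein-coding genes (adjusted p = 0.0159) and 0.57 with small-RNA genes left out (adjusted p = 0.0353). BCL2L1 had 0.30 with median-of-ratios scaling (adjusted p = 0.0155) and 0.31 over nuclear protein-coding genes (adjusted p = 0.0135). Both were also called in a fit of these groups alone and without either Treated library, and PMAIP1 without either Day1 library.

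In Treated cells, 5 of 10 genes were lower than in Control (BMF, BAK1, BCL2L1, MCL1 and XIAP) and 1 higher (BIK), where 18.2% of tested genes were called lower and 6.28% higher. The median log2 difference of the 10 was -0.26 and that of all tested genes -0.15. With median-of-ratios scaling, which moves the share of all calls that were higher from 25.7% to 51.7%, the same 6 genes were called in the same directions. Both anti-apoptotic genes, 1 of 2 effectors and XIAP were thus lower together, and PMAIP1, BBC3, BCL2L11 and BAX were not called, with log2 differences of -0.06, 0.24, -0.01 and -0.10. Against Extracted cells, 4 of 10 genes were lower in Treated cells (PMAIP1, BAK1, BCL2L1 and XIAP) and 0 higher, against 8.87% lower and 3.24% higher of all tested genes. MCL1 had a difference of -0.40 there (adjusted p = 0.0566). The Day1, Day3, Extracted and Treated comparisons share the Control libraries, so their differences are not independent of each other.

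Ratios between genes of 1 library do not depend on how that library was scaled, and they set binding partners against each other. PMAIP1 over MCL1, the pair whose proteins bind each other, was 0.0700 and 0.0797 in Control, 0.154 and 0.139 for Day1, 0.0699 and 0.0794 for Day3, 0.126 and 0.127 for Extracted and 0.108 and 0.0863 for Treated libraries. Although both transcripts were higher on Day1, the ratio was higher as well, and it did not overlap Control on Day1, in Extracted or in Treated libraries. Its mean log2 value differed from Control by 0.97 on Day1, 0.76 in Extracted and 0.37 in Treated cells. These ratios were not tested.

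The summed TPM of the 5 BH3-only genes was 58.6 and 73.3 in Control, 123.7 and 134.2 for Day1, 89.1 and 84.4 for Day3, 49.7 and 51.0 for Extracted and 45.2 and 40.5 for Treated libraries. BMF held 59.1% and 60.7% of that sum in Control and 50.3% to 65.1% in the gel libraries. In Extracted and Treated libraries its part was smaller, 32.6% to 37.4%. Divided by the sum of BCL2L1 and MCL1, it was 0.188 and 0.231 in Control, 0.341 and 0.423 for Day1, 0.292 and 0.294 for Day3, 0.166 and 0.164 for Extracted and 0.183 and 0.183 for Treated libraries. Over these 5 genes the gel libraries stood above the other 6, with Day1 the highest. The recovered cells lay below Control, the Treated ones by little (0.183 against 0.188 in Control replicate 1). BID and BAD, also BH3-only genes, are not in this sum. In Control BID measured 115.4 and 114.8 TPM and BAD 52.4 and 53.9 TPM. The order of the groups is therefore given for these 5 genes alone. In Treated cells numerator and denominator were both lower than in Control: the 2 anti-apoptotic genes summed to 247.2 and 221.7 TPM against 312.3 and 316.8. BAX over BCL2L1 averaged 0.198 in Control, 0.248 on Day1, 0.188 on Day3, 0.191 in Extracted and 0.244 in Treated libraries. Its Day1 values, 0.211 and 0.285, overlapped Control at 0.180 and 0.216, and its Treated values, 0.230 and 0.259, did not. BAK1 over MCL1 averaged 0.145, 0.113, 0.146, 0.130 and 0.119 in the same order of groups. In Treated libraries it was 0.102 and 0.135.

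**Figure D3:**
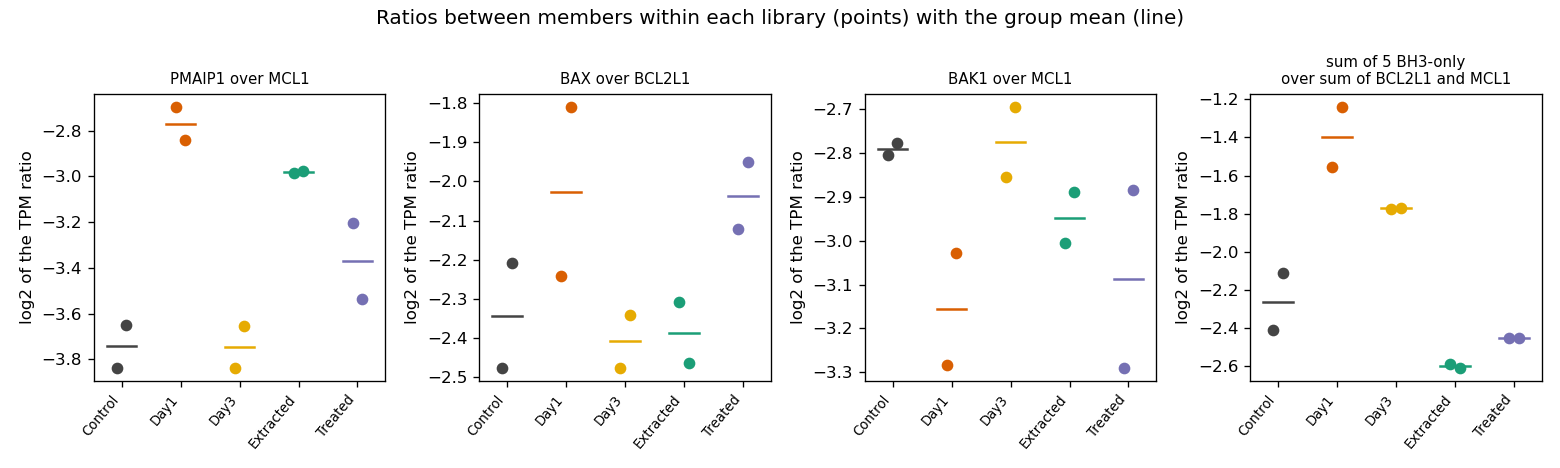
Log2 of the TPM ratio between partners within each library (points) and the group mean (line), for PMAIP1 over MCL1, BAX over BCL2L1, BAK1 over MCL1, and the 5 BH3-only genes over BCL2L1 and MCL1 together; each panel has its own axis range. The mean of PMAIP1 over MCL1 is -3.74 in Control, -2.77 on Day1 and -2.98 in Extracted libraries, and the BH3-only ratio is highest on Day1 with a mean of -1.40.

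Over 10708 genes that averaged 5 TPM or more in some group, those whose log2(TPM + 1) ran most like each member over the 10 libraries were named as a description. Libraries of 1 group share their condition, and high values are easily reached over so few points. PMAIP1 ran most like STC2 (Pearson r = 0.976) and TARS (0.973), and BBC3 like KCNG1 (0.976) and PRNP (0.976). BIK ran most like VASP (0.963) and EPS8 (0.952), and BMF like PYGO2 (0.992) and DPYSL3 (0.990). The nearest genes to BAK1 were MPDU1 (0.984) and ARAF (0.980), to BCL2L1 BRI3BP (0.970) and CDC20 (0.969), to MCL1 SDE2 (0.993) and NFE2L2 (0.992), and to XIAP NAA15 (0.992) and SYNCRIP (0.985). Among the 10 themselves, BBC3 and BIK had r = 0.87, BMF and BAK1 0.84, MCL1 and XIAP 0.84, and BIK and BCL2L1 -0.64.

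Around these 10 genes, 5 lists of cell-death genes were read in the same fit. On Day1, 4 of 9 tested other BCL2-related genes rose and 0 fell, where 14.4% of all tested genes rose and 6.28% fell, and their median log2 difference was 0.21 beside 0.12 over all. They included BNIP3, a mitochondrial BH3-like protein of mitophagy, which rose from 27.4 ± 0.856 to 75.3 ± 12.7 TPM (adjusted p = 0.000236), its paralog BNIP3L, and HRK, a further BH3-only gene, from 1.94 ± 0.103 to 5.99 ± 1.94 TPM (adjusted p = 0.00400). The fourth, BCL2L13, was lost without Day1 replicate 1 or either Control library. BCL2, BCL2A1, BCL2L10 and BCL2L14 stayed below the filter, and BCL2A1 was listed at 0 in every library. Of the regulators, 4 of 11 rose and 1 fell on Day1, beside the same 14.4% and 6.28%, and their median of 0.07 lay below the 0.12 of all tested genes. ATF3, a stress-induced factor, rose from 13.9 ± 0.394 to 181.1 ± 53.9 TPM (adjusted p = 2.09e-05). DDIT3, which encodes CHOP, rose from 24.6 ± 1.25 to 145.0 ± 36.7 TPM (adjusted p = 7.78e-05), and ATF4 rose by 0.81 on the log2 scale. Against Control on Day3, 2 of 9 other BCL2-related genes, 1 of 8 death receptor genes and 3 of 11 regulators were higher, and 1 regulator, E2F1, was lower (log2 difference -0.45), where 5.18% of all tested genes were higher and 4.64% lower. BNIP3, 1 of the BCL2-related genes called on Day3, was not called with median-of-ratios scaling or over nuclear protein-coding genes.

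In the death receptor pathway 3 of 8 genes rose on Day1 (TNFSF10, the ligand TRAIL, its receptor TNFRSF10B, and TNFRSF1A), where 14.4% of all tested genes rose, and the median was 0.41 beside 0.12 over all. TNFSF10 was lost without Control replicate 2, and the 2 receptors without Day1 replicate 1 or either Control library. TNFRSF1A was further lost without either Day3 or Extracted library, with median-of-ratios scaling and with small-RNA genes left out. Over nuclear protein-coding genes both receptors were lost. DIABLO, the antagonist that relieves caspases from XIAP, was 1 of 6 IAP-related genes called on Day1, a share near the background, and rose by 0.54, a call lost without Control replicate 1 or Day1 replicate 1. On Day3, ATF3 rose against Control (2.00, adjusted p = 0.000705). From Day1 to Day3 ATF3 fell by 1.59 (adjusted p = 0.00740), as DDIT3 did by 1.75 (adjusted p = 0.00355). Neither fall was called in a fit of these groups alone, and the ATF3 fall was also not called without a filter. The ATF3 fall was lost without either Day3 library.

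In the recovered cells FAS, a death receptor, was higher in both arms: 10.7 ± 1.98 TPM in Extracted and 14.4 ± 2.91 in Treated against 5.04 ± 0.485 in Control (adjusted p = 0.0442 and 0.00154). The call in Extracted cells was lost without any 1 of the Control, Day3 or Extracted libraries. It was the only one among the 43 tested genes of the 5 lists there, where 0.857% of all tested genes were called higher and 1.13% lower. TNFSF10 was higher in Treated than in Control cells (log2 difference 1.08, adjusted p = 0.00120) and than in Extracted cells (1.49, adjusted p = 0.000640). Among apoptosome and caspase genes, CYCS, which encodes cytochrome c, fell in Treated cells by 0.66 on the log2 scale and CASP6 by 0.51. The CYCS call, from 129.5 ± 1.79 to 81.9 ± 5.19 TPM (adjusted p = 0.00104), held without each compared library. The CASP6 call was lost without Treated replicate 1 or either Control library and with median-of-ratios scaling. Among the other lists in Treated cells, 2 of 9 BCL2-related, 1 of 6 IAP-related and 2 of 8 death receptor genes were higher than in Control. Lower were 1 of 6 IAP-related genes, 1 of 8 death receptor genes and 1 of 11 regulators. Over all tested genes 6.28% were higher and 18.2% lower, so the lower counts of these lists are at or under the background. BOK, a BAX-like effector, rose from 8.01 ± 0.0011 to 14.5 ± 0.942 TPM in Treated cells (adjusted p = 0.00254).

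**Figure D4:**
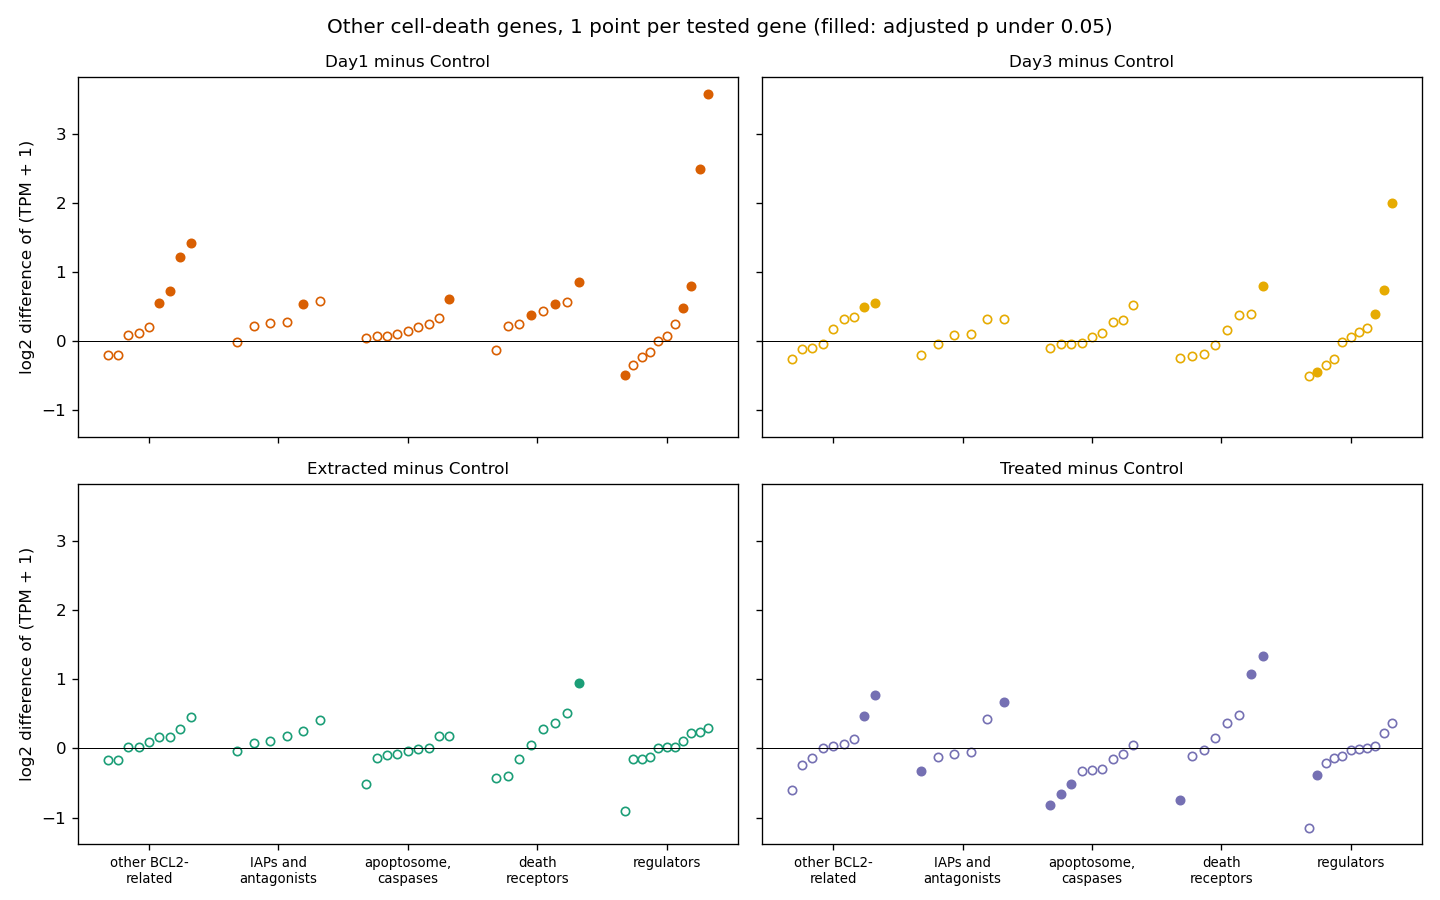
Difference from Control in log2(TPM + 1) for each tested gene of 5 cell-death lists (1 point a gene, in order of its value within the list), in 4 panels for Day1, Day3, Extracted and Treated cells; filled points have an adjusted p under 0.05. The highest Day1 points are the regulators ATF3 at 3.58 and DDIT3 at 2.49, and in Extracted cells the only filled point is FAS at 0.94.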

How the data were processed

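Total RNA of OVCAR-3 cells was extracted with column kits and made into 10 Illumina libraries, per the labels' protocols. The deposited table holds TPM per gene, made by the authors from reads handled with Trimmomatic, STAR and Cufflinks on GRCh38, per the submitters' processing notes. Not given in the sources used here are depth, strand setting, gene annotation and tool versions. The table has 349 blank lines and 58313 entries, and TPM of 91 entries with a repeated Ensembl identifier were added to the first, leaving 58222 genes. Positions came from GENCODE 29, which held 57959 of them. No 2 libraries were identical.

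The 15167 genes that reached 1 TPM in 2 or more libraries entered a limma fit (version 3.58.1, R 4.3.3) of log2(TPM + 1) over all 10 libraries, with a coefficient for each group, eBayes with a trend and 5 degrees of freedom left. Tests were two-sided in 7 comparisons, and Benjamini-Hochberg adjustment ran over all tested genes. A gene was called at an adjusted p under 0.05. The test was checked on simulated data. Alternatives were the compared groups alone, a block for the replicate number, omission of each library, nuclear protein-coding genes alone, median-of-ratios scaling, a filter at 5 TPM or none, and a pseudocount of 0.1. Where a library was left out, the other one of its group was assumed to vary like the other groups. Leaving out small-RNA genes was added after seeing the data. Tables and plots used Matplotlib 3.10.9, NumPy 2.4.6, pandas 2.3.3 and Python 3.11.15.

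Named are all 10 genes in every comparison, up to 3 called genes with the largest change from each list, and for each of the 10 called against Control the 2 genes with the highest Pearson correlation. Some genes that this rule names are left out here. BCL2L13 and the copies and neighbours of the 10 genes were named after their values were seen. The 10 genes and the lists were chosen with earlier results of these data known.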

Additional observations from a re-analysis of the deposited data

Results flagged for a closer look

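Effects measured against the same Control libraries differed between groups for 6 results, each by a direct limma test of one group against the other. PMAIP1 and BBC3 differed between the gel times: Day3 minus Day1 was -1.33 for PMAIP1 and -0.80 for BBC3 on the log2 scale, with both Day3 libraries below both Day1 libraries. Between the recovered groups, Treated minus Extracted was -0.73 for PMAIP1, -0.51 for BAK1, -0.37 for BCL2L1 and -0.91 for XIAP, again with no overlap of the libraries. Treated replicate 2, whose small-RNA share was 14.7%, was the lowest library for PMAIP1, BCL2L1 and XIAP, and without it their differences from Extracted were -0.48, -0.32 and -0.59 and were not called. With small-RNA genes left out, PMAIP1, BCL2L1 and XIAP were still called and BAK1 was not (limma, adjusted p = 0.0654). With median-of-ratios scaling BAK1 and BCL2L1 were not called, and none of the 6 differences was called in a fit of the compared groups alone. Of all tested genes, that fit called 5 for Day3 minus Day1 and 129 for Treated minus Extracted.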

How the results depend on the processing

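Of the 20 calls made for the 10 genes over 7 comparisons, 6 held in every fit in which the gene was tested: PMAIP1, BBC3 and BIK on Day1, BMF and BAK1 in Treated cells, all against Control, and BMF in Extracted against Day3 cells. No called difference changed sign. The number of the 10 genes called was 6 for Day1, 0 for Day3, 1 for Extracted and 6 for Treated against Control, 2 for Day3 against Day1, 1 for Extracted against Day3 and 4 for Treated against Extracted. Median-of-ratios scaling gave 1 for Day3, 2 for Extracted, 3 for Extracted against Day3 and 2 for Treated against Extracted. Nuclear protein-coding genes alone gave 1 for Day3, 2 for Extracted and 3 for Extracted against Day3, and leaving out small-RNA genes gave 1, 2 and 2, while both gave 3 for Treated against Extracted. The filter at 5 TPM, under which BIK was not tested, gave 5 for Day1, 5 for Treated and 5 for Treated against Extracted. A fit of the compared groups alone gave 1 for Day3, 2 for Extracted, 2 for Treated, 0 for Day3 against Day1, 3 for Extracted against Day3 and 0 for Treated against Extracted. Calls over all tested genes went there from 1489 to 2585, 302 to 653 and 3715 to 1645 for Day3, Extracted and Treated. They went from 356 to 5 for Day3 against Day1, 2599 to 4079 for Extracted against Day3 and 1836 to 129 for Treated against Extracted. Without a filter the counts were 0 for Extracted, 3 for Treated, 0 for Day3 against Day1 and 2 for Treated against Extracted, and a pseudocount of 0.1 gave 1 for Day3 against Day1. The cause was not tested. The number of all tested genes called also changed between fits, including those with 1 library left out. With 1 library left out, the counts ranged from 3 to 6 for Day1, 0 to 1 for Day3, 0 to 1 for Extracted, 2 to 6 for Treated, 0 to 3 for Day3 against Day1, 1 to 3 for Extracted against Day3 and 0 to 5 for Treated against Extracted.

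The replicate number as a block gave the same counts among the 10 genes, 6, 0, 1, 6, 2, 1 and 4. Deviations of same-numbered libraries correlated at -0.02 to 0.09 between groups, so the numbers are not taken to pair the samples. With the block, BNIP3 on Day3 and FAS in Extracted cells were not called against Control. With 2 libraries a group and unknown depth, differences of low transcripts such as BIK are the least certain.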
